A study of Mus musculus with 7 samples.

Results

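The Rab genes of mouse Purkinje cells were compared between wild-type and *nm3888*-/- mice. Of 55401 annotated genes, 59 carry a symbol made of Rab, a number and at most 1 letter, and 53 of these had 10 or more counts in each of 3 or more of the 7 libraries. The other 6 (*Rab17*, *Rab19*, *Rab20*, *Rab25*, *Rab38* and *Rab44*) had between 0 and 12 counts in any library. The 53 Rab genes were placed in classes by textbook knowledge. These were a secretory class (16 genes), an endosomal class (18 genes), a neuron-enriched class (10 genes) and a remainder (9 genes). The remainder holds ciliary, lysosome-related and ubiquitin-ligase members, *Rab36* of the Golgi and *Rab42* without an assigned role. The neuron-enriched class holds members best known from neurons whatever membrane they act on, so it cuts across the other classes.

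The *nm3888* mutation arose spontaneously in mice of the nonobese diabetic strain and lies in *Rreb1*, which encodes the zinc finger transcription factor RREB1. Per the study's methods the allele was also moved onto C57BL/6J by repeated backcrossing. All 7 mice carried *Rpl22 fl/+* and *PCP2-Cre*, which puts an HA tag on the ribosomal protein RPL22 in Purkinje cells, and the RNA bound to tagged ribosomes was pulled from whole cerebellum. The mice were 3 weeks old, with 3 wild-type and 4 *nm3888*-/- animals and 1 animal per library. Library names fall into 2 series. The first holds wild types 1 and 2 and mutants 1 and 2, which were all female. The second holds wild type 3, a female, and mutants 3 and 4, which were male, so sex and genotype cannot be told apart within it. Tests across genes therefore used the library series as a term, and their p-values measure the spread between these mice.

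Rab GTPases are small switch proteins that mark membranes. In the GTP-bound state each one sits on a particular compartment and recruits effectors such as tethers and motors, and after GTP hydrolysis it is drawn back into the cytosol. Exchange factors load GTP, GTPase-activating proteins end the cycle, and lipid anchors added by Rab geranylgeranyl transferase hold the protein on the membrane. Neurons use the same machinery for long transport routes in dendrites and axon and for the release of synaptic vesicles.

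Total counts ranged from 18023017 to 107937386 per library. Rab genes took 0.471 to 0.492% of the counts in wild-type and 0.392 to 0.437% in mutant libraries. Of 20 Purkinje cell markers 0 passed the edgeR test, with a median log2 fold change of 0.03. At an unadjusted p under 0.05, 2 of them were lower and 1 was higher, and DESeq2 called 1 lower. *Calb1* (calbindin) gave 0.10 (SE 0.14, adjusted p = 0.718) and *Pcp2* gave 0.27 (SE 0.13, adjusted p = 0.257). Markers of other cerebellar cells had higher medians, from 0.41 for endothelial cells to 0.80 for the choroid plexus. Summed levels in CPM (counts scaled to the TMM-adjusted library total) were 623 to 753 in wild-type and 782 to 1445 in mutant libraries for 16 granule cell markers, with 0 passing by edgeR or DESeq2 and 6 higher at an unadjusted edgeR p under 0.05. They were 620 to 665 CPM against 567 to 1010 CPM for 18 Bergmann glia and astrocyte markers, of which 3 rose and 1 fell, and 563 to 801 CPM against 735 to 1301 CPM for 17 oligodendrocyte markers, of which 2 rose and 1 fell. DESeq2 called 6 glial, 5 oligodendrocyte, 2 endothelial, 2 interneuron and 2 microglial markers higher. It called 1 glial, 1 oligodendrocyte and 1 choroid plexus marker lower. At an unadjusted edgeR p under 0.05, 8 of the 18 glial markers were higher and 1 lower, and 10 of the 17 oligodendrocyte markers were higher and 2 lower. In the second library series alone, 6 granule cell, 15 glial and 5 oligodendrocyte markers rose. *Gabra6* of granule cells gave a log2 fold change of 0.59, *Slc1a3* of glia 0.47, *Mbp* of oligodendrocytes 0.49, *Cx3cr1* of microglia 0.20 and *Cldn5* of endothelium 0.18, and none of these passed. *Cx3cr1* and *Cldn5* lay below the medians of their lists (0.64 for microglia and 0.41 for endothelial cells). By edgeR over all mice, the scarce *Fcrls* of microglia (mutant mean 0.77 CPM) rose by 2.19 in log2 units (adjusted p = 0.00576). The glial markers that rose were *Gfap* (1.04), *Timp4* (0.95) and *Ntsr2* (0.88), and *Hopx* fell (-0.82). Of the oligodendrocyte markers *Cnp* (0.67) and *Cldn11* (0.64) rose, and *Ugt8a* fell (-0.84). No gene of these lists was at 0 in every library. Their part in the Rab results was not tested, and in bulk RNA fewer cells of a type and less RNA per cell cannot be told apart. *Rreb1* itself had 16.5 ± 1.81 CPM (SD, n = 3) in wild-type and 18.5 ± 5.46 CPM (SD, n = 4) in mutant libraries (log2 fold change 0.20, SE 0.23, adjusted p = 0.640). The allele is an insertion in an intron per the study, and the counts sum all transcripts of the gene. The study reports loss of the predominant brain transcript of *Rreb1* in mutants, also with probes to all its transcripts. The summed counts here did not fall, so they do not bear out the labels, and the reason was not tested.

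In mutant Purkinje cells more Rab genes fell than rose, and the falls were largest in *Rab39b*, *Rab8b*, *Rab37* and *Rab3c*. Of 52 Rab genes tested, 10 fell (19.2%, where 5.95% of all 17621 genes tested fell) and 2 rose (3.85%, where 2.58% of all genes rose) in edgeR's quasi-likelihood test at an adjusted p under 0.05. A fit with a replicate block, which takes the label's replicate number as the term instead of the series, gave 4 that fell (*Rab39b*, *Rab3c*, *Rab8b* and *Rab37*) and 2 that rose (*Rab36* and *Rab29*). Mutant 4 has no wild type of its number and so adds nothing to the genotype estimate of that fit. Over all genes tested, the fit with the replicate block gave 571 that fell and 241 that rose. The 10 that fell were *Rab39b*, *Rab8b*, *Rab37*, *Rab3c*, *Rab33a*, *Rab3a*, *Rab40c*, *Rab31*, *Rab5b* and *Rab2a*, and the 2 that rose were *Rab29* and *Rab36*. All mutant libraries lay below all wild-type libraries for 15 Rab genes (28.8%, where this held for 8.92% of all genes), and above them for 2 (3.85%, where this held for 5.16%). Rab genes had a median log2 fold change of -0.19, against 0.03 for all genes tested, with 36 Rab genes below 0 and 16 above. *Rab42*, the member left out of the test by the filter on low counts, had 0.25 ± 0.03 CPM (SD, n = 3) in wild-type and 0.30 ± 0.09 CPM (SD, n = 4) in mutant libraries.

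**Figure D1:**
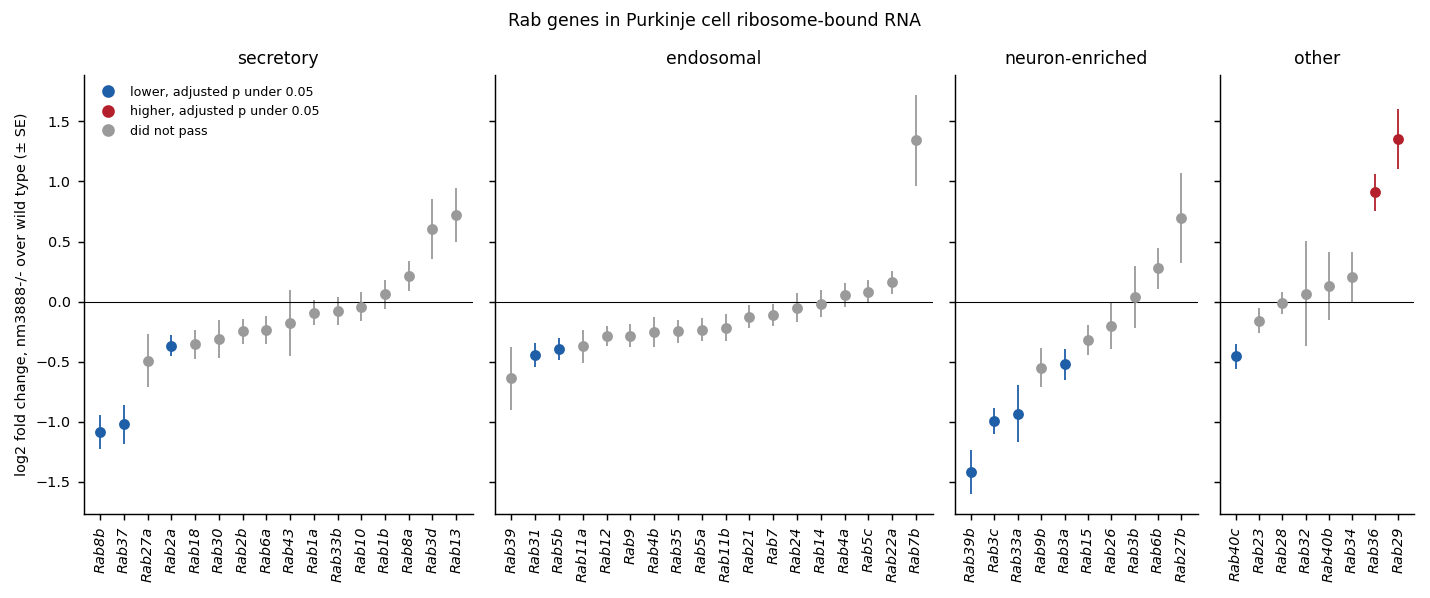
Log2 fold change (y axis, *nm3888*-/- over wild type, bars are standard errors from the edgeR fit) of the 52 tested Rab genes, grouped by class and ordered by value. Blue points fell and red points rose at an adjusted p under 0.05, and grey points did not pass. The lowest points are *Rab39b* at -1.42, *Rab8b* at -1.08, *Rab37* at -1.02 and *Rab3c* at -0.99.

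These calls differed in how far they depended on single libraries. The calls of 4 genes (*Rab3c*, *Rab39b*, *Rab8b* and *Rab36*) held with each of the 7 libraries left out in turn, with adjusted p of at most 0.0363. The call of *Rab37* was lost without wild type 3 (adjusted p = 0.0721) and that of *Rab29* without wild type 2 (adjusted p = 0.0581). The calls of the other 6, whose adjusted p lay between 0.0282 and 0.0463, were each lost when any of 5 or more of the 7 libraries was left out, although every log2 fold change kept its sign. All 12 genes had the same sign within each library series, but they were picked from these libraries, so this is no separate check. Of the 51 Rab genes with a value in both series, 40 had the same sign in both, a count without a share over all genes beside it. With no term for the series 1 Rab gene fell (*Rab8b*) and 0 rose, where 251 of all genes tested fell and 58 rose. With sex as the term 0 Rab genes fell and 0 rose by edgeR, where 85 of all genes tested fell and 17 rose. All males were mutants, so mutants 3 and 4 add nothing to the genotype estimate of the fit with sex. At an unadjusted p under 0.05 the fit with sex had 9 Rab genes lower and 3 higher, and the fit with no term 16 and 3. No share over all genes stands beside these unadjusted counts, so they do not set Rab genes apart.

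Promoter sequences of the 3 genes whose falls were largest among those that held with each library left out are shown for the letters they contain. They come from RefSeq (build GRCm38.p6) and run 5′ to 3′ on the gene's strand, from 250 bases before to 50 after a transcription start. Capitals mark the letters CCCAAAC, the core of the site that RREB1 is known to bind, and the GC box GGGCGG, each searched on both strands. The *Rab3c* window is chr13:110280157-110280456 on the minus strand, and its start lies 790 bases downstream of the gene start in the count annotation. The *Rab8b* window is chr9:66919656-66919955 on the minus strand, and the *Rab39b* window is chrX:75578182-75578481 on the minus strand.
Rab3c: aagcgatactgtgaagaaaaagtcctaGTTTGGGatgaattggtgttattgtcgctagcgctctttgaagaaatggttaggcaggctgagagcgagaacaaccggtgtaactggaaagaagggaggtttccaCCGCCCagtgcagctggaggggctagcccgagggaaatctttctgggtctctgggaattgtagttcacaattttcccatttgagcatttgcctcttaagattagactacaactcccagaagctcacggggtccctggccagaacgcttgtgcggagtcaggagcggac
Rab8b: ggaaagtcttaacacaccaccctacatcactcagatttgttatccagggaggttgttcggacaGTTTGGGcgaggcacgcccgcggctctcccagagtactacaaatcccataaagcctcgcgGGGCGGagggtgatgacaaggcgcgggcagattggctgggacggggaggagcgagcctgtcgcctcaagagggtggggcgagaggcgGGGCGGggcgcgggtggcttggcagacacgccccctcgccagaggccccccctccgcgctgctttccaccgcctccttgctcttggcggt
Rab39b: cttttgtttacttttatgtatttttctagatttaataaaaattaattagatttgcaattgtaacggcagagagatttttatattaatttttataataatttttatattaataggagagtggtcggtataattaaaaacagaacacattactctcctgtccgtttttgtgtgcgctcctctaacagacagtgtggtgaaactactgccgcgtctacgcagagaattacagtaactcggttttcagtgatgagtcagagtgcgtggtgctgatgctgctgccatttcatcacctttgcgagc
The RREB1 core stood once in *Rab3c*, with its first base at -223 from the start, and once in *Rab8b* at -187, in both on the antisense strand (printed as GTTTGGG), and not in the *Rab39b* window. A window was found for 44 of the 53 Rab genes (56 windows in all, since some genes have several starts), and the core stood in 3 of these 56 (5.36%). It stood in 2 of the 9 windows of genes that fell and in 4.84% of all 32851 promoter windows of this length. The GC box was common in Rab promoters, at 71.4% of windows against 35.7% of all windows, and stood in 6 of the 9 windows of genes that fell. Rab windows had a median of 61.7% G and C, against 52.7% over all windows, while the *Rab39b* window had 35.7%. The E-box CATCTG stood in 14.3% of Rab windows and 17.2% of all windows, and the cAMP response element TGACGTCA in 1.79% of both. These matches are letters in a window and not measured binding sites.

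Levels of the Rab genes covered a wide range and were led by the synaptic vesicle member *Rab3a*. Per kb of exon, wild-type libraries held 505 ± 40.4 CPM (SD, n = 3) of *Rab3a*, which made up 32.7% of the summed Rab level. *Rab7* of late endosomes followed at 132 ± 11.2 CPM per kb (SD, n = 3), then *Rab1b* of transport from the endoplasmic reticulum to the Golgi at 105 ± 10.7 and *Rab2a* of the Golgi at 96.3 ± 8.40. The order of *Rab1b* and *Rab2a* was within their spread, whereas *Rab1a*, next at 61.4 ± 5.00, lay apart from both. *Rab6a*, *Rab5c*, *Rab10* and *Rab11b* lay between 48.3 and 51.9 CPM per kb and could not be ordered beyond their spread, and *Rab11a* was at 41.9. The top 10 genes made up 73.8% of the summed level, 26 of the 53 exceeded 10 CPM per kb, and 14 lay under 1.

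**Figure D2:**
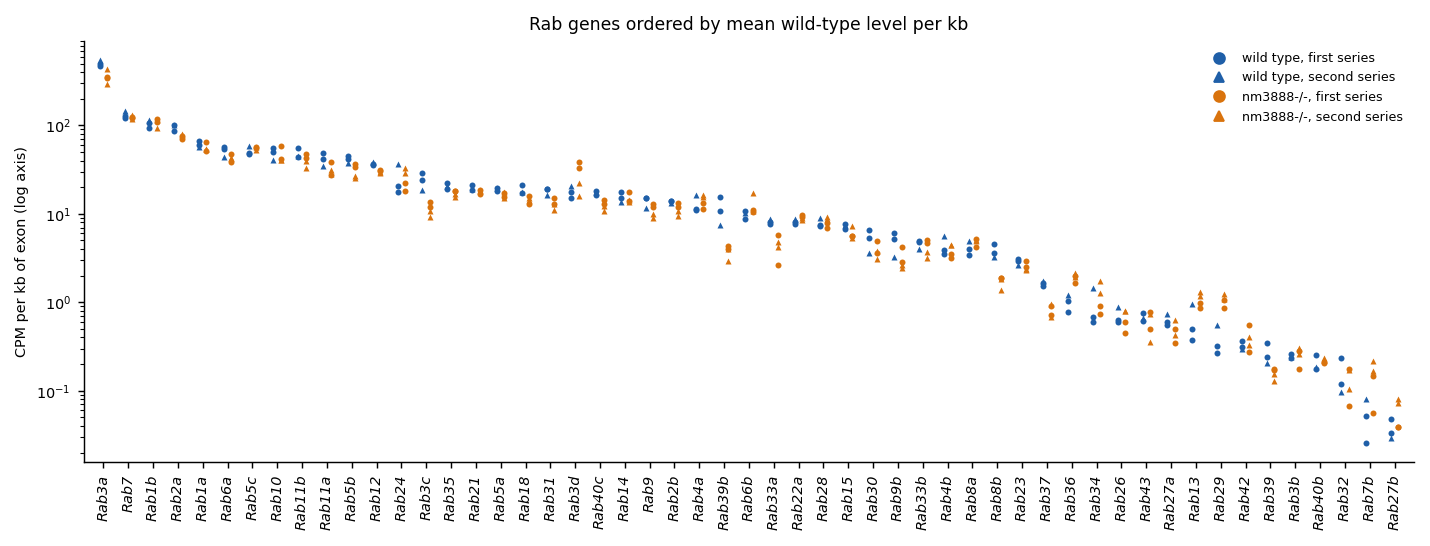
Level of each of the 53 Rab genes per kb of exon (y axis, log scale, TMM-normalized CPM per kb) in each library, ordered by the wild-type mean. Blue marks are wild type and orange marks mutant, circles the first and triangles the second library series. *Rab3a* stands at 505 CPM per kb in wild type, apart from *Rab7* at 132, and mutant marks lie below wild-type marks for *Rab3c*, *Rab39b* and *Rab8b*.

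The summed Rab level per kb was 1518, 1525 and 1597 CPM in wild types 1 to 3 and 1269, 1332, 1165 and 1362 CPM in mutants 1 to 4. The groups did not overlap, and the mutant mean was 17.1% below the wild-type mean. Without *Rab3a* the sums were 1034 to 1047 CPM per kb in wild-type and 872 to 979 CPM per kb in mutant libraries, 11.1% lower in the mean. A permutation test of 3 against 4 libraries cannot go below p = 0.0571 (exact, two-sided), so sums and shares are given without a test.

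Neuron-enriched Rabs had the lowest median change. Of 10 tested, 4 fell (40%, *Rab39b*, *Rab3c*, *Rab33a* and *Rab3a*) and 0 rose, with a median log2 fold change of -0.42. Secretory Rabs had 3 that fell (18.8%, *Rab8b*, *Rab37* and *Rab2a*) and 0 that rose of 16, with a median of -0.21. Endosomal Rabs had 2 that fell (11.1%, *Rab31* and *Rab5b*) and 0 that rose of 18, with a median of -0.22. Over all genes tested 5.95% fell and 2.58% rose, so 0 that rose does not set apart classes of 10 to 18 genes. At an unadjusted edgeR p under 0.05, 0 neuron-enriched, 2 secretory and 1 endosomal gene were higher, and DESeq2 called 0 higher in these classes. Of the 8 tested in the remainder, *Rab40c* fell (12.5%) and *Rab36* and *Rab29* rose (25%), with a median of 0.10. Both that rose act at the Golgi or trans-Golgi, and *Rab30* of the Golgi is in the secretory class. The 0 that rose among secretory Rabs therefore depends on this placement. The medians of the secretory, endosomal and neuron-enriched classes were -0.13, -0.18 and -0.42 in the first series and -0.17, -0.26 and -0.31 in the second, so the neuron-enriched class was lowest in both. The neuron-enriched share of the summed Rab level came to 36.9 ± 0.965% over the 3 wild-type and 30.9 ± 2.46% over the 4 mutant libraries (SD), without overlap. Most of that share is *Rab3a*. The endosomal share was 32.9 ± 0.413% against 35.5 ± 0.987%, and the secretory share 28.1 ± 1.19% against 31.4 ± 1.69%. The secretory shares overlapped, with 29.3% in wild type 1 and 28.9% in mutant 4. Shares are parts of a fixed total, so a lower neuron-enriched share means a higher share of the rest. The difference between classes was not tested, since the classes were drawn with results of these data known.

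Among the neuron-enriched genes, *Rab39b* showed the largest fall of any Rab gene. RAB39B acts in neuronal vesicle traffic, and its loss in people causes X-linked intellectual disability with early parkinsonism. Its CPM was 52.5, 36.6 and 25.2 in wild types 1 to 3 and 13.6, 14.9, 13.7 and 10.04 in mutants 1 to 4. The wild-type libraries differed among themselves by more than the mutant ones, and all 4 mutants lay below all 3 wild types. The log2 fold change was -1.42 (SE 0.19, adjusted p = 0.00222 by edgeR), with -1.64 in the first series, where all mice were female, and -1.08 in the second. *Rab39b* lies on the X chromosome, and its autosomal paralog *Rab39*, at 0.78 ± 0.22 CPM (SD, n = 3) in wild type, gave -0.64 (SE 0.26, adjusted p = 0.180).

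*Rab3c* and *Rab3a*, which bind synaptic vesicles and act in regulated release, both fell. *Rab3c* had 349, 294 and 227 CPM in wild types 1 to 3 and 145, 166, 112 and 130 CPM in mutants 1 to 4, so the highest mutant lay well below the lowest wild type. Its log2 fold change was -0.99 (SE 0.11, adjusted p = 0.000949 by edgeR), the smallest adjusted p of the Rab genes, and -1.05 and -0.91 within the first and second series. In order of level per kb, *Rab3c* went from rank 14 in wild type to rank 24 in mutants. *Rab3c* lies on chromosome 13 like *Rreb1*, 72.1 Mb away, and *Rab24* (autophagosomes), the other member on that chromosome, lies 17.4 Mb away and gave -0.05 (SE 0.12, adjusted p = 0.837).

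*Rab3a* had 1056, 1092 and 1226 CPM in wild types 1 to 3 and 764, 785, 653 and 964 CPM in mutants 1 to 4. Mutant 4 came closest to the wild types. The log2 fold change was -0.52 (SE 0.13, adjusted p = 0.0453 by edgeR), and the call held without mutant 3 (adjusted p = 0.0199) or mutant 4 (0.0233) and was lost without any of the other 5 libraries (0.0922 to 0.246). It was also lost with the replicate block (adjusted p = 0.0515). *Rab3b* was near the bottom of the range, at 0.86 ± 0.04 CPM (SD, n = 3) in wild type, and gave 0.04 (SE 0.26, adjusted p = 0.948).

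*Rab33a*, found on vesicles that leave the Golgi for the growing axon, had 9.32, 8.90 and 10.1 CPM in wild types 1 to 3 and 6.75, 3.04, 5.59 and 4.87 CPM in mutants 1 to 4. It fell by 0.93 in log2 units (SE 0.24, adjusted p = 0.0463 by edgeR), and the call held only when mutant 1 was left out (adjusted p = 0.0115) and was lost without any other library. *Rab9b* of late endosomes, like *Rab33a* on the X chromosome, gave -0.55 (SE 0.16, adjusted p = 0.0728), and DESeq2 called it (adjusted p = 0.0246). Of the other neuron-enriched members *Rab15* gave -0.32, *Rab26* -0.20, *Rab6b* 0.28 and *Rab27b* 0.69, and none of these passed. Of the 4 X-linked Rab genes 2 fell, and *Rab9* and *Rab9b* did not pass.

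**Figure D3:**
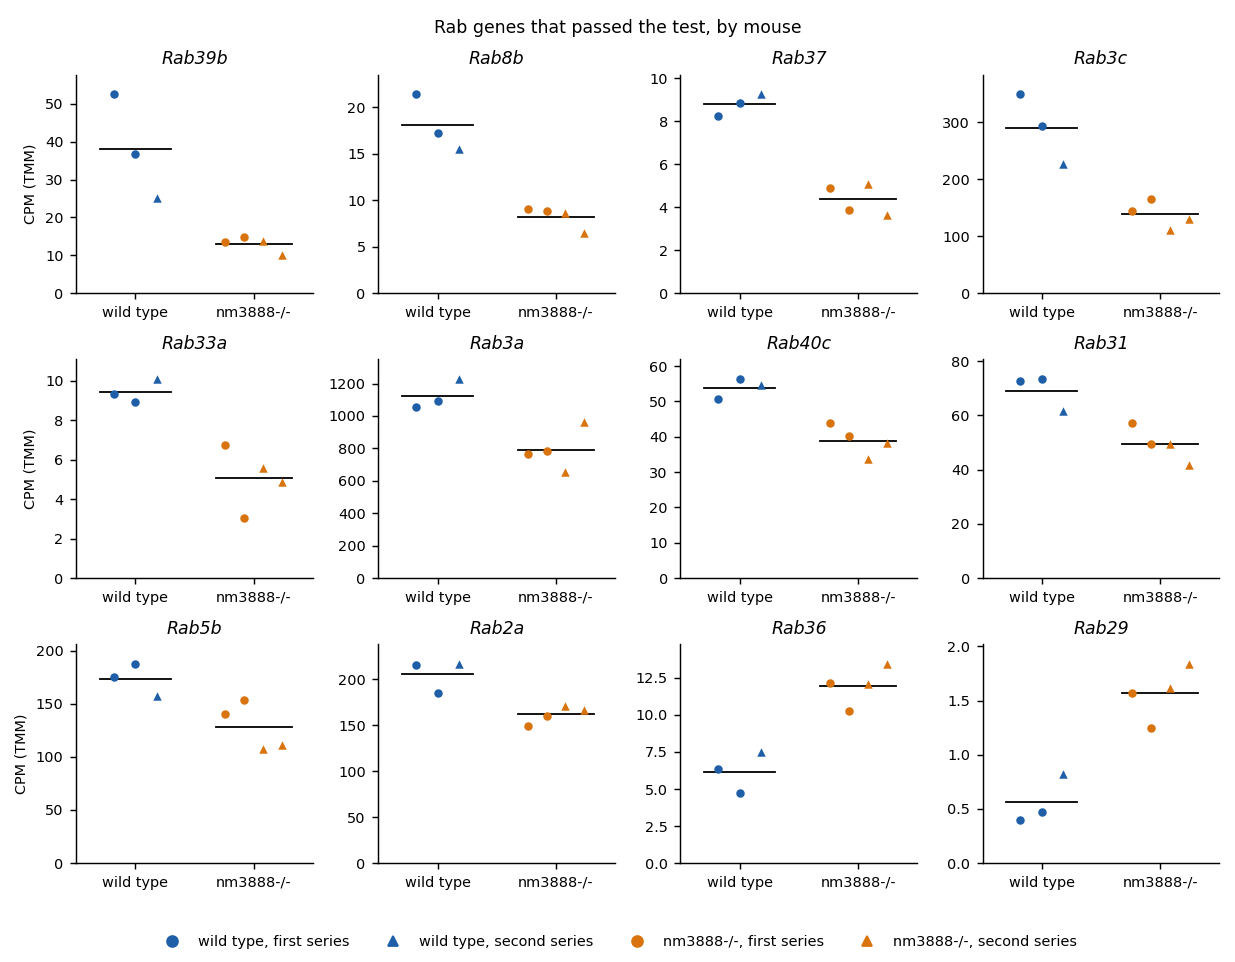
TMM-normalized CPM (y axes, each from 0) of the 12 Rab genes that passed the test, 1 point per mouse, with lines at the group means. Blue is wild type and orange *nm3888*-/-, circles the first and triangles the second library series. In every panel the groups do not overlap, with 10 genes lower and *Rab36* and *Rab29* higher in mutants.

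In the secretory class the falls were in *Rab8b*, *Rab37* and *Rab2a*. RAB8B moves vesicles from the trans-Golgi network to the plasma membrane, as does its paralog RAB8A. *Rab8b* had 21.4, 17.2 and 15.6 CPM in wild types 1 to 3 and 9.01, 8.88, 8.59 and 6.46 CPM in mutants 1 to 4. Mutants 1 to 3 lay close together and mutant 4 lay below them. The log2 fold change was -1.08 (SE 0.14, adjusted p = 0.00212 by edgeR), and it was alike within the first (-1.11) and second series (-1.04). *Rab8a* gave 0.21 (SE 0.13, adjusted p = 0.353), with 19.3 ± 3.59 CPM (SD, n = 3) in wild-type and 22.9 ± 2.09 CPM (SD, n = 4) in mutant libraries.

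*Rab37*, a Rab of secretory granules, had 8.25, 8.86 and 9.24 CPM in wild types 1 to 3 and 4.87, 3.87, 5.07 and 3.65 CPM in mutants 1 to 4. It fell by 1.02 in log2 units (SE 0.17, adjusted p = 0.00660 by edgeR). *Rab2a* had 215, 185 and 216 CPM in wild types 1 to 3 and 149, 160, 171 and 167 CPM in mutants 1 to 4. The gap between the groups was less than the range within either group, and the log2 fold change of -0.37 (SE 0.09, adjusted p = 0.0421 by edgeR) did not pass with any 1 library left out (adjusted p up to 0.195).

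The abundant secretory Rabs other than *Rab2a* did not pass. *Rab1b* gave 0.06 (SE 0.12), *Rab1a* -0.09 (SE 0.10), *Rab10* -0.04 (SE 0.12) and *Rab6a*, which runs retrograde transport to the Golgi, -0.24 (SE 0.11), with adjusted p from 0.255 to 0.874. *Rab18* of the endoplasmic reticulum and lipid droplets gave -0.36 (SE 0.12, adjusted p = 0.111), and its groups did not overlap. *Rab13* gave 0.72 (SE 0.23, adjusted p = 0.0918) at 1.41 ± 0.71 CPM (SD, n = 3) in wild type.

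*Rab3d*, the Rab3 member of secretory cells, had unlike values in the 2 series. It had 63.7, 73.9 and 86.7 CPM in wild types 1 to 3 and 160, 140, 66.5 and 94.0 CPM in mutants 1 to 4, so mutants 1 and 2 stood far above every wild type, mutant 4 just above, and mutant 3 within their range. Over all mice the log2 fold change was 0.60 (SE 0.25, adjusted p = 0.182 by edgeR). It was 1.13 in the first series (adjusted p = 0.00715) and -0.11 in the second (adjusted p = 0.884), and it also passed without wild type 3 (log2 fold change 1.12, adjusted p = 0.0161). The difference between the series did not pass after adjustment over all genes (adjusted p = 0.370).

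Of the endosomal Rabs, *Rab5b* and *Rab31* passed the test. *Rab5b*, which drives fusion of early endosomes, had 176, 187 and 157 CPM in wild types 1 to 3 and 141, 153, 108 and 111 CPM in mutants 1 to 4, and fell by 0.39 in log2 units (SE 0.09, adjusted p = 0.0323 by edgeR). The gap between the groups was small beside the difference between the series, and the call was lost with any 1 library left out (adjusted p up to 0.258). *Rab31*, which carries cargo from the trans-Golgi network to endosomes, had 72.7, 73.3 and 61.5 CPM in wild types 1 to 3 and 57.3, 49.4, 49.5 and 41.7 CPM in mutants 1 to 4, and fell by 0.44 (SE 0.10, adjusted p = 0.0282 by edgeR). That call held without mutant 1 or mutant 3 and was lost without any other library (adjusted p up to 0.148).

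The other endosomal members did not pass. *Rab12*, of the route from recycling endosome to lysosome, came closest of those over 1 CPM, with -0.29 (SE 0.08, adjusted p = 0.0731) and no overlap between 108 to 116 CPM in wild-type and 87.9 to 94.98 CPM in mutant libraries. *Rab35* (-0.25) and *Rab5a* (-0.23) did not overlap either. Among the abundant ones, *Rab7* gave -0.11 (SE 0.09), *Rab5c* 0.08 (SE 0.10), *Rab11b* -0.22 (SE 0.12) and *Rab11a* of recycling endosomes -0.37 (SE 0.14), with adjusted p from 0.137 to 0.639. *Rab7b*, which acts between late endosomes and the Golgi, had 0.24 ± 0.13 CPM (SD, n = 3) in wild-type and 0.68 ± 0.31 CPM (SD, n = 4) in mutant libraries (log2 fold change 1.34, SE 0.38, adjusted p = 0.0676). It passed without mutant 1 (adjusted p = 0.0454) and with no filter on low counts (0.0319).

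Both Rab genes that rose and the last that fell belong to the remainder. *Rab36*, a Golgi-associated Rab, had 6.32, 4.74 and 7.47 CPM in wild types 1 to 3 and 12.2, 10.3, 12.1 and 13.4 CPM in mutants 1 to 4. The lowest mutant lay above the highest wild type, and the log2 fold change was 0.91 (SE 0.15, adjusted p = 0.00746 by edgeR). *Rab29*, which recruits the kinase LRRK2 to the trans-Golgi network and lysosomes, was scarce, with 0.39, 0.47 and 0.82 CPM in wild types 1 to 3 and 1.57, 1.25, 1.62 and 1.84 CPM in mutants 1 to 4. It rose by 1.35 in log2 units (SE 0.25, adjusted p = 0.0116 by edgeR). *Rab40c*, whose protein is an adaptor of a ubiquitin ligase, had 50.7, 56.3 and 54.6 CPM in wild types 1 to 3 and 43.8, 40.1, 33.6 and 38.2 CPM in mutants 1 to 4. It fell by 0.46 (SE 0.10, adjusted p = 0.0299 by edgeR), and the call held without mutant 1 or mutant 3 and was lost without any other library (adjusted p up to 0.244).

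**Figure D4:**
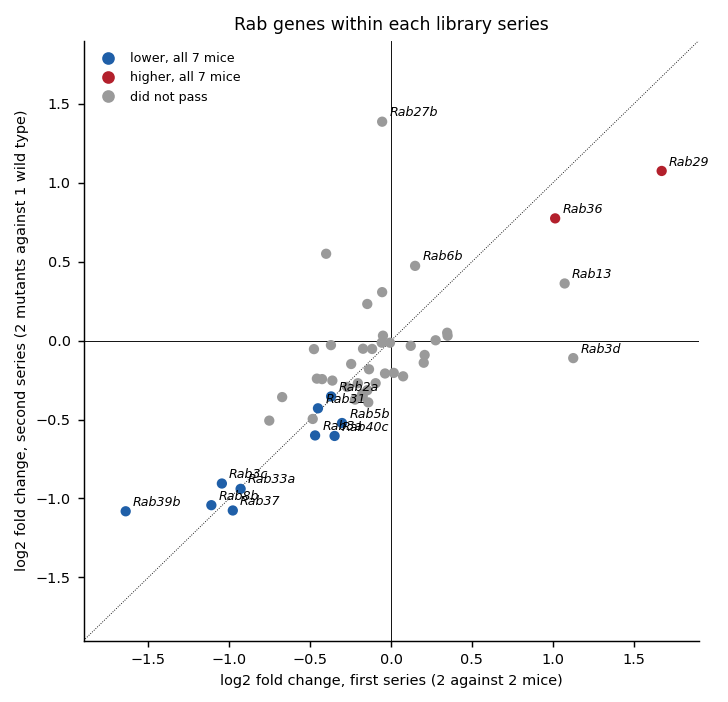
Log2 fold change of 51 Rab genes in the first library series (x axis, 2 wild types and 2 mutants) against the second (y axis, 1 wild type and 2 mutants), with the diagonal dotted. Blue points fell and red points rose over all 7 mice. All 12 of these, which were picked from the same libraries, lie in the lower left or upper right field. *Rab3d* lies apart at 1.13 in the first and -0.11 in the second series.

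The shares of paralogs within several Rab subfamilies did not overlap between the genotypes. Within Rab8, the *Rab8b* share of the summed level per kb was 57.0, 47.5 and 40.0% in wild types 1 to 3 and 26.6, 30.6, 26.2 and 21.6% in mutants 1 to 4. The sum of both came to 7.95 ± 0.284 CPM per kb over the 3 wild-type and 6.63 ± 0.488 CPM per kb over the 4 mutant libraries (SD). Within Rab33, the *Rab33a* share was 61.1 to 68.7% in wild type and 35.8 to 57.1% in mutants, and the paralog *Rab33b* of the Golgi gave -0.08 (SE 0.11, adjusted p = 0.725). Within Rab6, the neuronal *Rab6b* share was 13.3 to 18.6% in wild type and 18.8 to 28.5% in mutants, although neither gene passed.

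In the Rab3 subfamily *Rab3a* kept most of the level, at 91.4 to 93.3% in wild type and 87.2 to 92.8% in mutants, while the sum was 547 ± 38.1 CPM per kb in the 3 wild types and 395 ± 60.6 CPM per kb in the 4 mutants (SD). The *Rab3d* share was 2.93 to 3.50% in wild type, 9.68 and 8.35% in mutants 1 and 2, and 4.97 and 4.80% in mutants 3 and 4. The *Rab3c* share was 3.19 to 5.58% in wild type and 2.32 to 3.44% in mutants, which overlapped. Within Rab5 the *Rab5b* share came to 36.8 ± 4.00% in the 3 wild types and to 29.7 ± 3.48% in the 4 mutants (SD). The groups overlapped, with 32.3% in wild type 3 and 33.1% in mutant 2. The *Rab5c* share was 42.75 to 50.77% in wild type and 51.16 to 56.74% in mutants, without overlap.

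In the Rab1, Rab2, *Rab7*, *Rab9*, Rab11 and Rab27 subfamilies the shares overlapped. The *Rab1a* share of Rab1 was 33.1 to 41.7% in wild type and 30.2 to 37.4% in mutants, the *Rab11a* share of Rab11 was 42.8 to 52.6% against 39.3 to 46.1%, and the *Rab2a* share of Rab2 was 86.2 to 88.4% against 84.8 to 89.3%. Within *Rab9* the share of the X-linked neuronal *Rab9b* was 21.9 to 29.0% against 19.2 to 24.5%. The *Rab4a* share of Rab4 was 74.2 to 75.8% in wild type and 77.8 to 79.0% in mutants without overlap, but 65% of the exon length of *Rab4b* overlaps another gene on the same strand, so its counts are uncertain. The *Rab39b* share of the summed level of both *Rab39* paralogs was 97.3 to 97.8% in wild type and 94.97 to 96.9% in mutants, and the *Rab40c* share of the Rab40 level was 98.61 to 98.97% against 97.89 to 98.55%, both lower in mutants without overlap. *Rab7* held 99.96% of its subfamily in wild type, and *Rab27a* (secretory granules) gave -0.49 (SE 0.22, adjusted p = 0.226) at 2.46 ± 0.37 CPM (SD, n = 3).

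**Figure D5:**
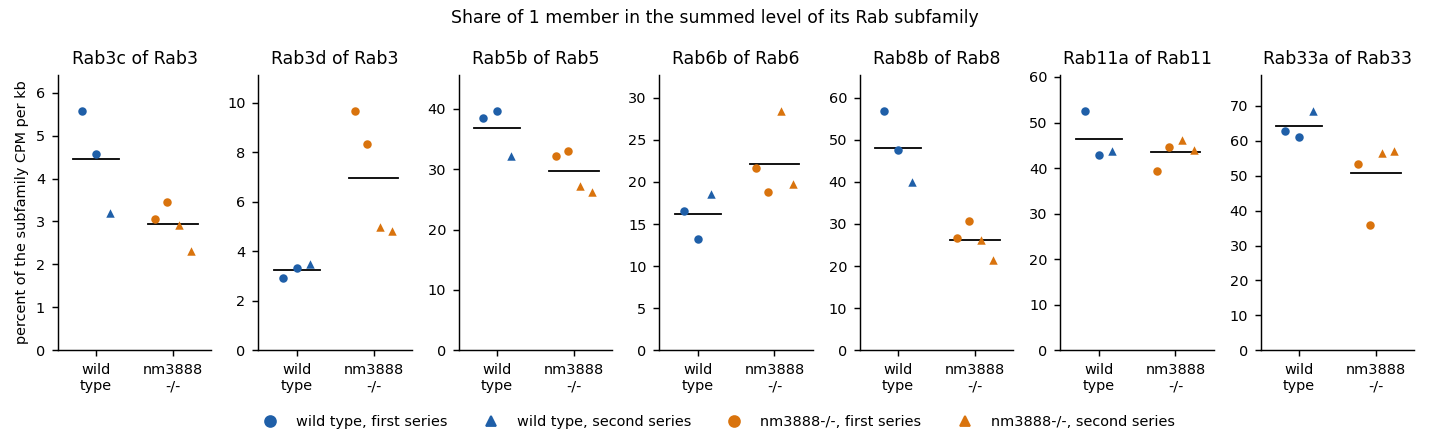
Share of 1 member in the summed CPM per kb of its Rab subfamily (y axes, percent, each from 0), 1 point per mouse, with lines at the group means. Colours are genotypes and shapes are library series. The *Rab8b* share lies between 40.0 and 57.0% in wild type and between 21.6 and 30.6% in mutants, and the *Rab3d* share is highest in mutants 1 and 2.

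Reads that could belong to near-identical copies are a limit of such shares. The alignments of the 2 series came from different folders per the file headers (Bowtie2 in the first, STAR in the second), and processed pseudogenes took reads mainly in the first. *Rab7-ps1* had 152 CPM in the first and 0.547 CPM in the second series, *Rab11b-ps2* 153 and 2.10 CPM, and *Rab5a-ps* 24.2 and 0.0599 CPM. How much this took from *Rab7*, *Rab11b* and *Rab5a* was not tested, and the library series was a term of the fit. No Rab gene that passed had exons that overlap another gene on its strand.

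The genes that act on Rab proteins passed the test about as often as all genes. Of 152 prenylation factors, exchange factors, GTPase-activating proteins and effectors, 147 were tested, 9 fell (6.12%, where 5.95% of all genes fell) and 4 rose (2.72%, where 2.58% rose), with a median log2 fold change of -0.02. With the replicate block 2 fell and 1 rose, and left-out libraries gave 1 to 11 that fell and 0 to 4 that rose. The list was drawn with results of these data known.

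Of 39 exchange factors tested, 2 fell (5.13%, where 5.95% of all genes fell) and 1 rose (2.56%, where 2.58% of all genes rose). By edgeR *Ankrd27*, which activates RAB21, fell (-0.62, adjusted p = 0.0222), as did *Madd*, which activates RAB3 and RAB27 (-0.36, adjusted p = 0.0344). *Sbf2* rose (0.65, adjusted p = 0.0246 by edgeR). *Madd* had 227, 227 and 369 CPM in wild types 1 to 3 and 185, 166, 297 and 284 CPM in mutants 1 to 4, so it was lower within each series while the groups overlapped. Of 36 GTPase-activating proteins 1 fell and 1 rose (2.78% each). By edgeR *Tbc1d30* fell (-0.51, adjusted p = 0.0116) and *Sgsm2* rose (0.50, adjusted p = 0.0205).

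Of 62 effectors tested 5 fell (8.06%, where 5.95% of all genes fell) and 2 rose (3.23%, where 2.58% of all genes rose). The gene annotated as *2900011O08Rik*, a later symbol of which is *Bmerb1* (a protein with the Rab-binding bMERB domain), had 222, 226 and 251 CPM in wild types 1 to 3 and 8.85, 5.54, 15.3 and 11.5 CPM in mutants 1 to 4. Its log2 fold change of -4.66 (SE 0.22, adjusted p = 1.67e-05 by edgeR) was beyond that of any Rab gene. *Myrip*, which links RAB27 on granules to myosin, gave -0.95 (adjusted p = 0.0111), *Rilpl1*, bound by RAB8 and RAB10 after their phosphorylation by LRRK2, gave -0.66 (0.0190), *Ica1*, which binds RAB2, gave -0.52 (0.0145), and *Rab11fip4* of recycling endosomes gave -0.50 (0.0310). *Sytl2*, an effector of RAB27, rose (0.90, adjusted p = 0.0388), as did *Rufy1* of early endosomes (0.37, adjusted p = 0.0432). *Rab11fip4* had 1253, 1246 and 1172 CPM in wild types 1 to 3 and 989, 948, 639 and 810 CPM in mutants 1 to 4, without overlap between the groups. The groups overlapped for *Ica1* (15.4 to 30.5 CPM in wild-type, 10.5 to 23.3 CPM in mutant libraries) and for *Rufy1* (20.2 to 37.7 against 25.45 to 50.3 CPM). Within the first and second series the log2 fold changes were -0.56 and -0.47 for *Ica1* and 0.36 and 0.37 for *Rufy1*.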

How the data were processed

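Gene counts were deposited by the authors, 1 table per mouse. Per the study's methods reads were trimmed with fastp and aligned to mm10, and per the file headers read pairs were counted with featureCounts 2.0.1 by strand on GENCODE M25. The methods name 3 libraries per genotype, and the labels hold 4 mutant libraries. The methods use batch as a covariate without naming each library's batch, so the library series in the names was used.

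The 17621 genes that passed filterByExpr were tested with edgeR 4.0.16 (limma 3.58.1, R 4.3.3), with TMM scaling, the quasi-likelihood F test and Benjamini-Hochberg adjustment over all of them, called at 0.05. CPM are counts scaled to the TMM-adjusted library total, divided by exon length in kb where given per kb. Both fits were tested on simulated data. The members, classes and lists were chosen with earlier results of these data known. Named were all Rab genes that passed, the 10 with the highest level, members with a same-number paralog, the 3 most extreme in each direction of those that did not pass and had a mean log2 CPM over 2, and up to 4 called regulators per list and direction (a 5th effector and some Rab genes were added, and 1 result among the regulators is not reported here). Deviations from group means of same-numbered mice correlated at 0.905 to 0.955 over genes, and so did other pairs of the same series (0.922 to 0.958), while pairs across the series were at -0.962 to -0.913: the numbers follow the series. DESeq2 1.42.0, RLE scaling, no filter, thinned counts, other batch terms, each series alone and each library left out were alternatives.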

Additional observations from a re-analysis of the deposited data

Results flagged for a closer look

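In 37 Rab genes that were named, the 4 mutant libraries were checked for a value far from the other 3 by Dixon's test, which chance exceeds in about 1 of 20 groups, and 3 genes had one. *Rab10* had 206 CPM in mutant 2, where the other mutants had 141 to 148 CPM. *Rab6b* had 87.0 CPM in mutant 3, where the others had 53.4 to 55.4 CPM. Mutant 3 also held the highest summed level of granule cell (1445 CPM), glial (1010 CPM) and Purkinje cell markers (65520 CPM). Oligodendrocyte markers were highest in mutant 4 (1301 CPM), and a link of *Rab6b* to any of these was not tested. *Rab8b* had 6.46 CPM in mutant 4, where the others had 8.59 to 9.01 CPM, and its call held without that mouse. No Rab gene passed the test of a difference between the library series, where 14 genes passed over the whole table.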

How the results depend on the processing

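The number of Rab genes that fell (10) and rose (2) depended most on how the library series was treated. With no batch term 1 fell and 0 rose, and with sex in its place 0 and 0, where all genes tested gave 85 that fell and 17 that rose. The fit with sex gets no genotype estimate from mutants 3 and 4, and the replicate block none from mutant 4. No wild type shares the sex or the number of these mice. With the replicate block 4 fell and 2 rose, the first series alone gave 4 and 2 (*Rab36* and *Rab3d*), and the second alone 4 and 0 by edgeR, with 4 higher at an unadjusted p under 0.05. Left-out libraries gave 3 to 8 that fell and 1 to 3 that rose, and no filter on low counts gave 11 and 4. RLE scaling gave 8 and 2, DESeq2 11 and 2, and counts thinned to the smallest library 7 and 2. Over all genes tested, 251 fell and 58 rose with no batch term, and 571 fell and 241 rose with the replicate block. The first series alone gave 488 and 191 over all genes, RLE scaling 969 and 505, DESeq2 1256 and 794 and thinned counts 891 and 476. Calls over the whole table thus changed with the setting too. Regulators and effectors (9 fell, 4 rose) gave 1 and 0 with no batch term, 1 and 0 with sex, 2 and 1 with the replicate block, 2 and 0 in the first series, 3 and 1 in the second, and 1 to 11 that fell and 0 to 4 that rose with libraries left out. Of 192 pairs of a called Rab gene and an alternative, 106 kept the call, 86 lost it and 0 changed sign. The cause of these losses was not tested. Genes under 1 CPM rest on few reads in the smallest library.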
